A study of Homo sapiens with 4 samples.

Results

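OVCAR5 is a human ovarian carcinoma cell line. It was exposed in culture to medium taken from tumor cells grown together with T cells, at 6 levels (none, undiluted, and diluted 5, 25, 125 and 625 times) and for 4 times (2, 6, 12 and 24 h). The 24 cultures were hashed, that is, each was marked with a pair of antibody-borne oligonucleotide tags, pooled, and sequenced as single cells on a droplet platform that reads the 3′ ends of RNA. Described here are the cells of 5 tag pairs, HTO3/HTO9, HTO4/HTO9, HTO5/HTO9, HTO6/HTO9 and HTO7/HTO9, set against HTO2/HTO9. Each pair is called a hashtag sample.

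Cells belonged to a hashtag sample when they had at least 1000 genes, at most 20% of their counts in mitochondrial genes, and both of their top tags at least 3 times the next one. The 5 samples hold 1184 cells and HTO2/HTO9 holds 244, together 1428 of the 5298 cells with a tag pair and of 10660 barcodes in all. The samples and their order were chosen by measured levels of the genes described below, so the order itself is no finding. Neither level nor time is given for any tag pair by the labels used here. That HTO2/HTO9 is an unexposed culture, and that the other 5 share its exposure time with less and less medium from HTO3/HTO9 to HTO7/HTO9, is an inference from those levels and the tag order. All 6 samples share the cell line, the culture medium, the pool and the sequencing. Each is 1 culture, so no difference has a replicate check, no test was made, and the 95% intervals given in parentheses cover counting error only. The cells just inside the thresholds had 1161 genes, 19.97% mitochondrial counts and a tag ratio of 3, and the barcodes just outside had 999 genes, 20.06% and 2.98.

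Interferon gamma, a cytokine released by activated T cells, signals through JAK kinases to transcription factors that turn on IRF1 and, through the regulator CIITA, the genes of MHC class II. MHC class I presents peptides to CD8 T cells and MHC class II to CD4 T cells, and tumor cells of epithelial origin usually carry little class II without interferon gamma. Tumor necrosis factor and interleukin 1 signal to NF-κB, which turns on cytokines as well as its own inhibitors. Interferon gamma can also slow cell division.

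The 6 samples held between 206 and 264 cells and between 2512172 and 3764096 unique molecular identifiers (UMIs, barcodes that count RNA molecules), so that 3 counts equal 0.797 to 1.19 CPM, a count divided by the sample's total and scaled to 1e+06. HTO3/HTO9 stood apart in quality: its cells had a median of 9389 UMIs and 13.8% mitochondrial counts, against 11934 to 13361.5 UMIs and 10.1% to 12.2% in the other 5. Markers of other cell types were near 0. Of 12 T cell markers, 10 or 11 were at 0 in each sample, CD3E and PTPRC among them, and the summed count was 1 or 2. Fibroblast markers summed to between 0 and 4 counts and endothelial markers to 0 or 1. Of 6 myeloid markers, CD68, a lysosomal gene that epithelial cells also express, gave most counts, at 23.3 to 53.7 CPM. The 8 epithelial markers summed to 3634 CPM in HTO2/HTO9 and to 1892, 2212, 2740, 3133 and 3441 CPM in HTO3/HTO9 to HTO7/HTO9.

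Both the genes higher and the genes lower than in HTO2/HTO9 became fewer from HTO3/HTO9 to HTO7/HTO9. A gene was called when its difference of log2(CPM + 10) from HTO2/HTO9 was at least 2-fold, among 5743 genes whose mean reached 20 CPM. In HTO3/HTO9, 345 genes (6.01% of those tested) were higher and 312 (5.43%) lower. In HTO4/HTO9, 217 (3.78%) were higher and 51 (0.888%) lower, and in HTO5/HTO9, 170 (2.96%) and 15 (0.261%). HTO6/HTO9 had 121 (2.11%) higher and 4 (0.0697%) lower, and HTO7/HTO9 had 90 (1.57%) higher and 1 (0.0174%) lower. The genes higher by 8-fold or more numbered 55, 39, 26, 16 and 8 in the same order. The median difference of all tested genes was −0.19 in HTO3/HTO9 and −0.11, −0.063, −0.057 and −0.032 in the others. Scaling by TMM factors, which centre the median gene, moved that median in HTO3/HTO9 to 0.0078 and the counts there to 446 higher and 184 lower. Which direction was more frequent in HTO3/HTO9 depended on the processing: a pseudocount of 1 CPM gave 428 higher and 499 lower, and cells thinned to 3000 UMIs gave 399 and 424. All 5 comparisons share HTO2/HTO9.

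**Figure D1:**
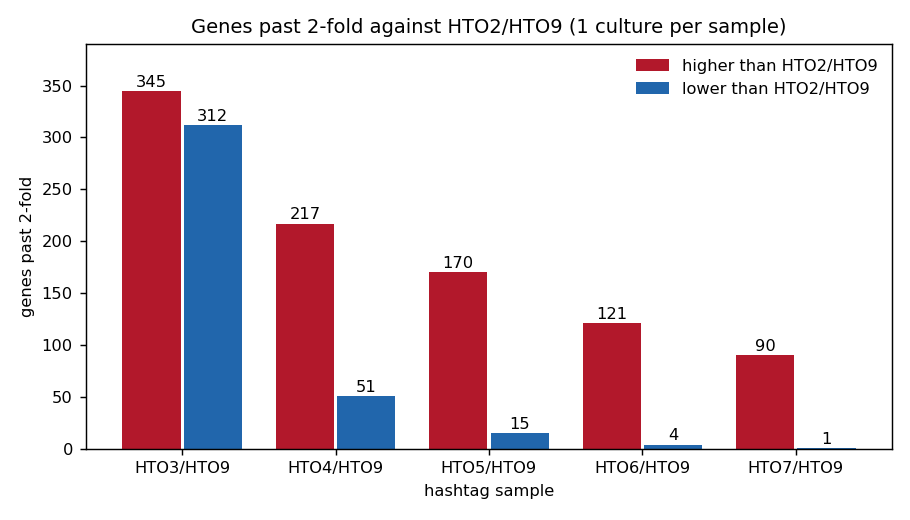
Number of genes past 2-fold against HTO2/HTO9 (vertical axis) in each hashtag sample (horizontal axis), with genes higher in red and genes lower in blue; 5743 genes were tested, 1 culture per sample. Higher genes go from 345 to 90 and lower genes from 312 to 1 along the tag order, with 51 lower genes in HTO4/HTO9, of which 35 were also lower in HTO3/HTO9.

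The higher genes were largely nested along the tag order, which was itself chosen by measured levels. Of the 345 genes higher in HTO3/HTO9, 90 were higher in all 5 samples, and the unbroken run of calls ended at HTO3/HTO9 for 140, at HTO4/HTO9 for 44, at HTO5/HTO9 for 43 and at HTO6/HTO9 for 28. Differences became smaller at every step for 184 of the 345. Of 362 genes higher in at least 1 sample, 298 had their highest level of the 5 in HTO3/HTO9, 50 in HTO4/HTO9, 12 in HTO5/HTO9, 2 in HTO6/HTO9 and 0 in HTO7/HTO9. The 90 genes that reached HTO7/HTO9 included 67 from the 23 gene lists described next. The lists held 28 of the 140 genes whose run ended at HTO3/HTO9, 17 of 44 at HTO4/HTO9, 18 of 43 at HTO5/HTO9 and 20 of 28 at HTO6/HTO9, beside 393 of all 5743 tested genes. The lists were chosen with earlier results of these data known.

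MHC class II was near 0 in HTO2/HTO9 and high in the other 5 samples. CD74 and HLA-DRA, the genes that mark the chosen samples, belong to the list and make up most of its level, so this level describes the choice of samples and is no finding apart from it. Its summed level was 17.5 CPM in HTO2/HTO9 and 2398, 2064, 1575, 1278 and 695 CPM in HTO3/HTO9 to HTO7/HTO9, a ratio of 137 (106 to 182) in the first and 39.8 (30.6 to 52.7) in the last. The 18 other hashtag samples of the pool ran from 18.5 to 1032 CPM, with a median of 97.3 CPM. HTO3/HTO9 to HTO6/HTO9 were thus above all 18, and HTO2/HTO9 was below all 18. The 7 of 13 members that passed the level filter were each called higher in all 5 samples, where 6.01% to 1.57% of all genes were. A member silent in HTO2/HTO9 could pass that filter only by being high in the others. The median difference of the 7 was 3.58 in HTO3/HTO9 and 1.70 in HTO7/HTO9, on the log2 scale.

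CD74 (ENSG00000019582, GRCh38 chromosome 5, 150401637 to 150412929), the class II invariant chain that guides class II molecules to peptide-loading compartments, had 10.7 CPM in HTO2/HTO9. It had 1593, 1337, 1062, 811 and 463 CPM in the others in tag order, and its ratio in HTO7/HTO9 was still 43.2 (30.9 to 62.3). HLA-DRA (chromosome 6, 32439842 to 32445046), the alpha chain of HLA-DR, had 0.919 CPM (3 counts) and then 208, 199, 130.2, 134 and 69.4 CPM. HLA-DRA was level between HTO3/HTO9 and HTO4/HTO9 (ratio 1.04, 0.925 to 1.17) and again between HTO5/HTO9 and HTO6/HTO9 (0.969, 0.843 to 1.11), within counting error. CIITA, the master regulator of class II transcription, had 0.306 CPM (1 count) and then 35.8, 39.3, 25.8, 23.6 and 13.1 CPM. CTSS, a protease that trims the invariant chain, had 0.612 CPM (2 counts) and then 210.2, 188, 109, 56.0 and 22.3 CPM. Levels of genes of the HLA family, which share near-identical stretches, may be split unevenly between members by read counting.

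MHC class I started from a higher level, and its level differed by a smaller factor among the 5 samples than that of class II. The list had 3064 CPM in HTO2/HTO9 and 16199.5, 13569, 12559, 12244 and 10236 CPM in the others, ratios of 5.29 (5.17 to 5.40) to 3.34 (3.27 to 3.42). All 15 members that passed the level filter, of 18, were called higher in all 5 samples, where 6.01% to 1.57% of all tested genes were. Their median difference was 2.55 in HTO3/HTO9 and 1.57 in HTO7/HTO9. Members below 20 CPM in HTO2/HTO9, such as TAP1, passed the filter through the samples where they were high. TAP1, which pumps peptides to class I molecules, had 12.6 CPM and then 482, 448, 380.2, 315 and 240.3 CPM. PSMB9, an immunoproteasome subunit, had 37.4 CPM and then 912, 777, 765, 752 and 592 CPM. B2M, the class I light chain, had 1545 CPM and then 6730.4, 5282, 4885, 4840.1 and 4240.2 CPM. In HTO3/HTO9 to HTO6/HTO9 the class I list lay above all 18 other samples of the pool, which ran from 3146 to 10326 CPM.

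**Figure D2:**
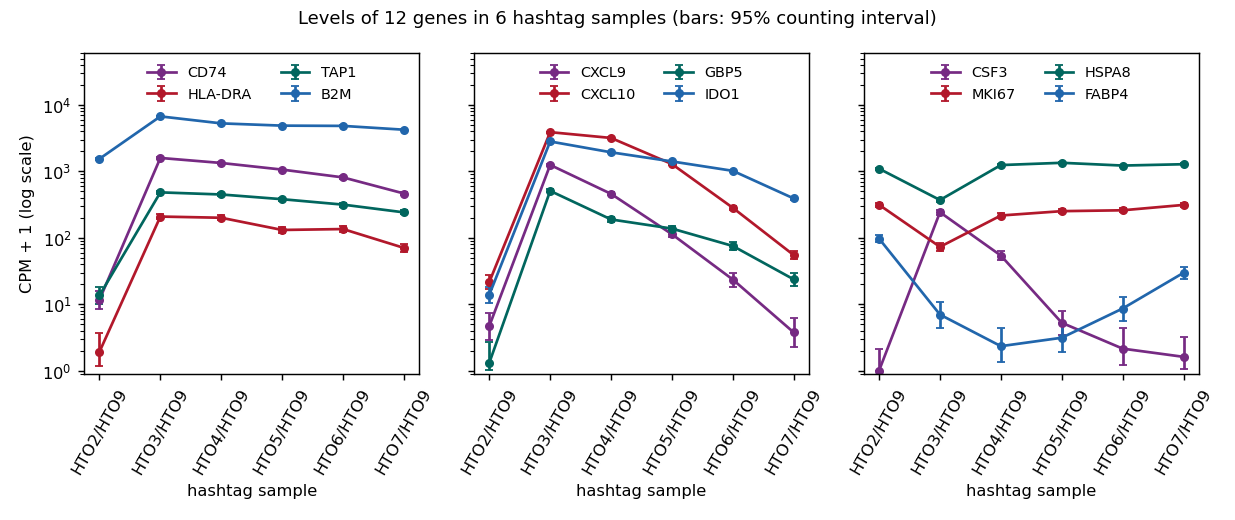
Level of 12 genes as CPM + 1 (vertical axis, log scale) in the 6 hashtag samples (horizontal axis), with 95% Poisson intervals as bars. In the left panel CD74, HLA-DRA, TAP1 and B2M stay above HTO2/HTO9 throughout; in the middle panel CXCL9 is at 1250.3 CPM in HTO3/HTO9 and at 2.75 CPM in HTO7/HTO9; in the right panel HSPA8 and MKI67 are lowest in HTO3/HTO9.

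The list of interferon gamma targets outside antigen presentation held chemokines, guanylate-binding proteins and IDO1. Its level was 637 CPM in HTO2/HTO9 and 19494, 14239, 9361, 6692 and 4027 CPM in the others, ratios of 30.6 (29.3 to 32.0), 22.3, 14.7, 10.5 and 6.32 (6.03 to 6.62). Of its 22 members past the filter, all 22 were called in HTO3/HTO9 to HTO6/HTO9 and 19 in HTO7/HTO9, beside 6.01% to 1.57% of all tested genes. As for class II, members near 0 in HTO2/HTO9, such as GBP5, passed the filter through the samples where they were high. CXCL9 and GBP5 also mark the chosen samples, so their levels describe that choice and are no finding apart from it. The members differed widely in how far along the series they stayed high.

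CXCL9 (chromosome 4, 76001275 to 76007488), which encodes a chemokine that draws T cells, had 3.67 CPM in HTO2/HTO9 and then 1250.3, 458, 112, 22.5 and 2.75 CPM. Each sample was higher than the next by 2.73-fold (2.56 to 2.91), 4.08-fold (3.66 to 4.56), 4.99-fold (3.79 to 6.67) and 8.16-fold (4.02 to 18.7), the last step being the largest, and in HTO7/HTO9 CXCL9 was at the level of HTO2/HTO9 (ratio 0.749, 0.279 to 1.94). CXCL10 (76021117 to 76023497), a neighbouring gene that encodes a ligand of the same receptor, had 20.5 CPM and then 3896, 3186, 1287, 281 and 53.8 CPM. Its first step was 1.22-fold (1.19 to 1.26) and its last 5.23-fold (4.43 to 6.20). CD74, by contrast, had steps of 1.19-fold, 1.26-fold, 1.31-fold and 1.75-fold (1.64 to 1.87). GBP5 (chromosome 1, 89258950 to 89272804), a guanylate-binding protein active against intracellular microbes, had 0.306 CPM (1 count) and then 508, 188, 137, 74.2 and 22.6 CPM. IDO1, a tryptophan-degrading enzyme, had 12.9 CPM and then 2818, 1936, 1411, 1018 and 389.9 CPM. IRF1, a transcription factor that acts early in this response, had 85.1 CPM and then 1682, 1025, 889, 791 and 495 CPM. CXCL10, GBP5, IDO1 and IRF1 were called in all 5 samples, and CXCL9 in the first 4. For the markers CXCL9, GBP5 and CD74, the fall along the series describes how the samples were chosen.

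**Figure D3:**
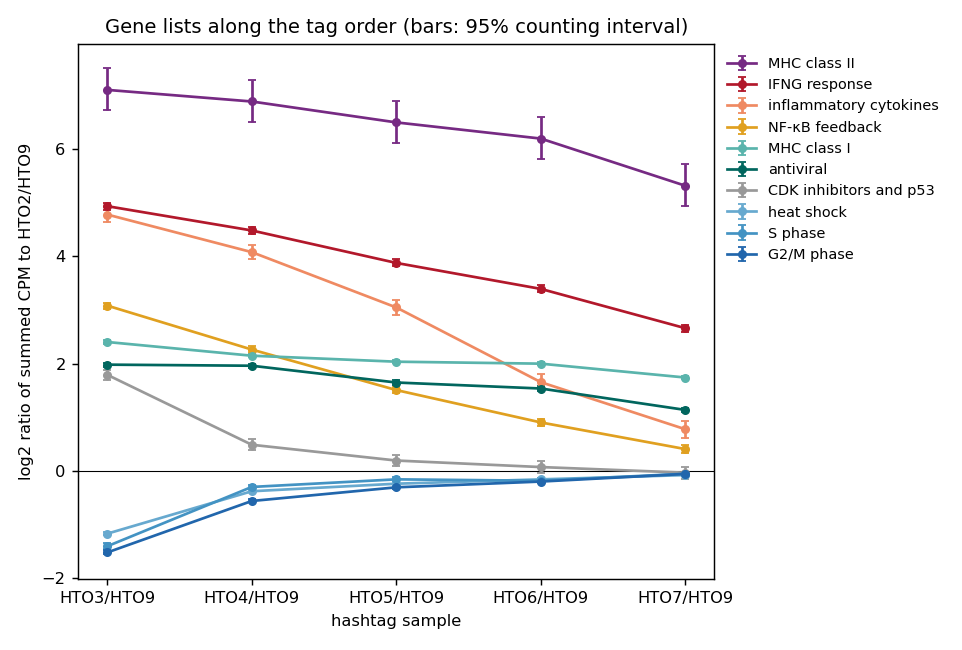
Log2 ratio of the summed CPM of 10 gene lists to HTO2/HTO9 (vertical axis) in 5 hashtag samples (horizontal axis); bars are 95% counting intervals and 0 is the level of HTO2/HTO9. From HTO3/HTO9 to HTO7/HTO9 the log2 ratio goes from 7.10 to 5.31 for MHC class II and from 2.40 to 1.74 for MHC class I. It goes from 4.78 to 0.775 for inflammatory cytokines and from 3.08 to 0.406 for the NF-κB list. The G2/M, S phase and heat shock lists are lowest in HTO3/HTO9.

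The summed level of antiviral interferon-stimulated genes was above HTO2/HTO9 in all 5 samples, but not that of every member. The list had 2187 CPM in HTO2/HTO9 and 8628, 8508, 6849.7, 6339 and 4806 CPM in the others, ratios of 3.95, 3.89, 3.13, 2.90 and 2.20. The step from HTO3/HTO9 to HTO4/HTO9 was 1.01-fold (0.996 to 1.03). Of 38 members past the filter, 30, 32, 29, 26 and 18 were called, beside 6.01%, 3.78%, 2.96%, 2.11% and 1.57% of all tested genes. IFIT1, which binds foreign RNA, had differences of −0.55, 0.17, −0.39, −0.36 and −0.73 on the log2 scale, and in HTO7/HTO9 IFIT2 had −0.59 and HERC5 −0.27. ISG15, a ubiquitin-like modifier, had 470.0 CPM and then 1542, 1541, 1023, 1029.8 and 753 CPM.

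Several antiviral genes were highest in HTO4/HTO9. Of the 217 genes higher in HTO4/HTO9, 12 were not called in HTO3/HTO9, among them MYD88, DDX60, FST, GLRX, SAMD9, ZC3HAV1, SLC25A28, IGFBP6, OASL, CARHSP1 and CEACAM1. OASL, an antiviral oligoadenylate synthetase-like protein, had 45.3 CPM in HTO2/HTO9, 53.3 in HTO3/HTO9, 141 in HTO4/HTO9 and 57.9, 67.4 and 42.8 CPM in the rest. HTO4/HTO9 stood 2.64-fold (2.17 to 3.23) above HTO3/HTO9 and above the 18 other samples of the pool, which ran from 8.87 to 48.3 CPM. SAMD9, an interferon-induced inhibitor of poxviruses, had 21.1 CPM and then 35.8, 87.6, 54.2, 55.6 and 29 CPM. IFIT3 had 128 CPM and then 296, 489.8, 391, 325 and 238 CPM, with HTO4/HTO9 at 1.65-fold (1.51 to 1.81) HTO3/HTO9. After thinning to 3000 UMIs, 12.6% of cells in HTO3/HTO9, 22.0% in HTO4/HTO9 and 13.7% in HTO5/HTO9 had an OASL UMI. The median cell had 25 UMIs of the antiviral list in HTO3/HTO9 and 23 in HTO4/HTO9, but the 95th percentiles were 44 and 55.7. HTO4/HTO9 was thus higher in its upper cells and not in its median cell. HTO3/HTO9 is also the sample with the lowest depth per cell and the highest mitochondrial share. The part of these in the differences between the 2 samples was not tested.

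The NF-κB list and the inflammatory cytokines were high in HTO3/HTO9 and nearer to HTO2/HTO9 at the other end. The NF-κB list, of feedback and survival genes, had 874 CPM in HTO2/HTO9 and 7398, 4193, 2484, 1635 and 1159 CPM in the others. Its ratio was 8.46 (8.13 to 8.80) in HTO3/HTO9 and 1.32 (1.26 to 1.39) in HTO7/HTO9. Of 23 members past the filter, 19, 15, 10, 6 and 2 were called, beside 6.01%, 3.78%, 2.96%, 2.11% and 1.57% of all tested genes. NFKBIA, the inhibitor that holds NF-κB in the cytoplasm, had 39.5 CPM and then 679.9, 405, 224, 111 and 64.2 CPM. SOD2, the mitochondrial superoxide dismutase, had 49.0 CPM and then 1835, 958, 424, 155 and 84.1 CPM. The 2 members called in HTO7/HTO9 were BIRC3, a caspase-inhibiting ubiquitin ligase, at a difference of 1.18, and ICAM1, an adhesion molecule that also stands in the interferon gamma list, at 1.58.

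The inflammatory cytokine list had 151 CPM in HTO2/HTO9 and 4143, 2548, 1247, 475 and 258 CPM in the others. Of 12 members past the filter, of 26, 10, 10, 6, 3 and 1 were called, beside 6.01%, 3.78%, 2.96%, 2.11% and 1.57% of all tested genes. Members near 0 in HTO2/HTO9, such as CSF3 and IL1B, passed the filter through the samples where they were high. CSF3, which encodes the growth factor of neutrophils (G-CSF), had 0 counts in HTO2/HTO9 and then 242, 53, 4.25, 1.14 and 0.612 CPM, at least 263-fold higher in HTO3/HTO9. HTO3/HTO9 exceeded HTO4/HTO9 4.56-fold (3.82 to 5.47) and HTO4/HTO9 exceeded HTO5/HTO9 12.5-fold (7.44 to 22.3). IL1B, the secreted interleukin 1 beta, had 3.67 CPM and then 275, 39.0, 14.9, 7.61 and 5.81 CPM. CXCL3, a neutrophil chemokine, had 9.49 CPM and then 503, 325, 121, 13.7 and 6.73 CPM. CXCL1 to CXCL3 are close relatives, and their reads may be split between them. IL32, an intracellular and secreted proinflammatory protein, was the member still called in HTO7/HTO9, with 9.80 CPM in HTO2/HTO9 and then 1412, 1040.3, 663, 257 and 91.1 CPM. C15orf48, which encodes a mitochondrial complex IV subunit and stands in no list, had 3.06 CPM and then 547, 74.0, 27.1, 9.52 and 5.20 CPM.

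Expressed as the share of its log2 ratio in HTO3/HTO9 that a list kept in HTO7/HTO9, MHC class II kept 74.8%, MHC class I 72.4%, the antiviral list 57.4% and the interferon gamma targets 53.9%. The inflammatory cytokines kept 16.2% and the NF-κB list 13.2%. This ordering describes 1 culture per sample and holds for the log2 scale only. In CPM, MHC class II went from 2398 in HTO3/HTO9 to 695 in HTO7/HTO9, and MHC class I from 16199.5 to 10236. Class II thus kept less of its CPM than class I. Its log2 ratio starts from 17.5 CPM in HTO2/HTO9 and rests on the markers CD74 and HLA-DRA, so its place is no finding. The markers CXCL9 and GBP5 belong to the interferon gamma list. The lists share a few genes, among them ICAM1, CIITA, XAF1, HLA-E and USP18.

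Other immune lists were also higher in HTO3/HTO9 than in HTO7/HTO9. Checkpoint and inhibitory ligands had ratios of 4.21 (3.93 to 4.52) in HTO3/HTO9 and 2.17 (2.02 to 2.34) in HTO7/HTO9. Of 7 members past the filter, 4 were called in HTO3/HTO9, beside 6.01% of all tested genes. CD274, which encodes PD-L1, had 1.84 CPM (6 counts) in HTO2/HTO9 and then 89.2, 74.3, 49.4, 38.1 and 17.7 CPM. It passed the level filter through the samples where it was high. Acute phase and complement genes had ratios of 4.99 and 1.30, and SAA1, a serum amyloid gene near-identical in part to SAA2, had 51.4 CPM and then 1481, 1333, 680.4, 373 and 182 CPM. Cytokine receptor, JAK and SOCS genes had ratios of 3.52 and 1.90. Of 18 members past the filter, 9 were called in HTO3/HTO9 and 2 in HTO7/HTO9, beside 6.01% and 1.57% of all tested genes.

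Promoters of these genes were read to show what lies before their starts. Of the 5743 tested genes, 4687 matched a promoter of the RefSeq table (GRCh38.p14), and the 250 bases before each start were searched on both strands for 3 short motifs. These were TTTCNNTTT, the core of the interferon-stimulated response element bound by IRF proteins; TTCNNNGAA, the gamma-activated site of interferon gamma targets; and GGNNNTTCC, the end of many κB sites. The motifs may overlap one another. The sequences below, 5′ to 3′ on the gene's strand with matches in capitals, belong to the gene with the largest HTO3/HTO9 difference among the genes of each run that had an entry, and to CD74. DDIT4 (chr10:72273674-72273923, plus strand) had a run ending at HTO3/HTO9, IL1B (chr2:112836780-112837029, minus strand) at HTO4/HTO9, CXCL3 (chr4:74038690-74038939, minus strand) at HTO5/HTO9 and CXCL9 (chr4:76007510-76007759, minus strand) at HTO6/HTO9. CXCL10 (chr4:76023498-76023747, minus strand) and CD74 (chr5:150412911-150413160, minus strand) reached HTO7/HTO9.
DDIT4: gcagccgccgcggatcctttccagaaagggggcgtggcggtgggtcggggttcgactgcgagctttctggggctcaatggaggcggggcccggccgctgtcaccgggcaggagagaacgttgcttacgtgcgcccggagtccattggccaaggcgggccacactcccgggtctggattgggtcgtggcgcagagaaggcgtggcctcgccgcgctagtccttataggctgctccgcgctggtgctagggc
IL1B: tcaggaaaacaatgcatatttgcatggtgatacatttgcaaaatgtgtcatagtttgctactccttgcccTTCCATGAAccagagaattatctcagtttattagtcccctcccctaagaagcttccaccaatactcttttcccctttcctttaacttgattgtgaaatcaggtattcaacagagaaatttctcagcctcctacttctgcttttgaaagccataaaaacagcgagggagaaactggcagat
CXCL3: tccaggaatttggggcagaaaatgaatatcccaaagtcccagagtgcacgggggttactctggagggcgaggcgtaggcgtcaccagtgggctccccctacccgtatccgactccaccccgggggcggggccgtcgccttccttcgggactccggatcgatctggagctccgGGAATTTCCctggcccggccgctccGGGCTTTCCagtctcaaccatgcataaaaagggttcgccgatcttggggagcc
CXCL9: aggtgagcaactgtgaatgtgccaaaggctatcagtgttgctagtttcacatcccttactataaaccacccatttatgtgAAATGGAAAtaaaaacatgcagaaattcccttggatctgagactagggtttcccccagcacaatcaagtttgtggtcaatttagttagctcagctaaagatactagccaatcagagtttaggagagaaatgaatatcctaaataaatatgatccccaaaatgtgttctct
CXCL10: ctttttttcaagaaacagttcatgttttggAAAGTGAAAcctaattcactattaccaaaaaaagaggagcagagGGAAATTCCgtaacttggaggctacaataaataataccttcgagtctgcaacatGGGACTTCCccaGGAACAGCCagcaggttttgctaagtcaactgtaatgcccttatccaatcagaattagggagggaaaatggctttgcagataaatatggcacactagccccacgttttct
CD74: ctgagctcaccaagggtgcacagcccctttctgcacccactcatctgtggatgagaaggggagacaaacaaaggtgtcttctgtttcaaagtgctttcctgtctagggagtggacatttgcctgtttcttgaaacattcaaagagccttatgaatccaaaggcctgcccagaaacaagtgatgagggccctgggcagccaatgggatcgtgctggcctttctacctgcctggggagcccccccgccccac

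CXCL9 and CXCL10 each held 1 response element core, 170 to 162 and 220 to 212 bases before the start. CXCL10 also held 3 κB matches, CXCL3 held 2, 78 to 70 and 53 to 45 bases before the start, and IL1B held 1 gamma-activated site. DDIT4 and CD74 held none of these letters in the window. Across the tested genes, 6.85% of promoters held the response element core, 6.04% the gamma-activated site and 21.0% the κB match, beside 9.28%, 6.78% and 17.1% of all 27305 promoters. The response element core stood in 3.88% of 103 promoters of genes whose run ended at HTO3/HTO9. It stood in 17.1% of 35 at HTO4/HTO9, 23.1% of 26 at HTO5/HTO9, 50% of 22 at HTO6/HTO9 and 48.5% of 66 that reached HTO7/HTO9. The κB match stood in 17.5%, 42.9%, 34.6%, 18.2% and 40.9% of the same promoters, and the gamma-activated site in 5.83%, 17.1%, 3.85%, 4.55% and 18.2%. By list, the core stood in 21 of 30 antiviral promoters and 7 of 12 of MHC class I, and the κB match in 5 of 7 of the inflammatory cytokines and 10 of 20 of the NF-κB list. The κB match also stood in 7 of 11 promoters of the interferon gamma list and 5 of 12 of MHC class I, and the gamma-activated site in 0 of 12 of class I and 0 of 4 of class II. These shares are counts of letters over genes that were chosen by their levels, with no test.

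**Figure D4:**
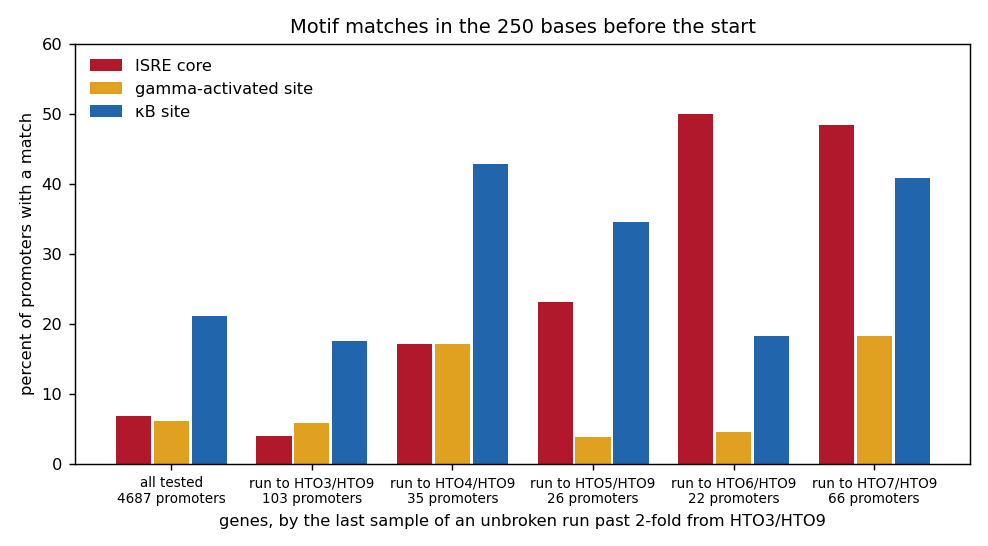
Percent of promoters with a match (vertical axis) to each of 3 motifs in the 250 bases before the start, for all tested genes and for genes grouped by the last sample of their unbroken run of calls (horizontal axis, with the number of promoters). The response element core goes from 3.88% of genes whose run ended at HTO3/HTO9 to 48.5% of genes called in all 5 samples.

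Genes of cell division were lowest in HTO3/HTO9, with smaller differences in the other samples. The G2/M list had 8283 CPM in HTO2/HTO9, 2886 CPM in HTO3/HTO9 and 5612, 6696, 7214 and 7962 CPM in HTO4/HTO9 to HTO7/HTO9, 2.87-fold (2.80 to 2.95) lower in HTO3/HTO9. It was 1.48-fold (1.45 to 1.505), 1.24-fold, 1.15-fold and 1.04-fold (1.02 to 1.06) lower in the others, and HTO4/HTO9 was below 17 of the 18 other samples of the pool. Of 52 members past the filter, 46 were called lower in HTO3/HTO9, where 5.43% of all genes were, then 1 in HTO4/HTO9 (LBR, a nuclear envelope receptor) and 0 in the others. With TMM factors 36 of 52 were called in HTO3/HTO9, beside 184 of all 5750 tested genes. The S phase list had 3274 CPM and then 1236, 2659.8, 2934, 2882 and 3157 CPM, with 20 of 32 members lower in HTO3/HTO9, 14 with TMM factors, and 0 in the other 4. MKI67, the Ki-67 proliferation antigen, had 313 CPM in HTO2/HTO9 and then 72.0, 216, 251, 259 and 312 CPM. RRM2, which makes deoxynucleotides for DNA synthesis, had 216 CPM and then 42.6, 157, 181, 172 and 211 CPM. HTO3/HTO9 was below all 18 other samples of the pool in both lists.

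Inhibitors of division were highest in the same sample. CDKN1A, which encodes the p21 inhibitor of cyclin-dependent kinases, had 10.1 CPM in HTO2/HTO9 and then 68.1, 46.3, 17.0, 11.8 and 9.17 CPM. BTG1, an antiproliferative gene, had 92.8 CPM and then 686, 235, 168, 119 and 102 CPM. GADD45A, a stress-induced brake on the cell cycle, had 61.2 CPM and then 307, 89.6, 73.3, 58.6 and 57.5 CPM. These 3 were the called ones of 5 members past the filter in HTO3/HTO9, of a list of 16, and CDKN1A and BTG1 were also called in HTO4/HTO9. Of all tested genes, 6.01% and 3.78% were called higher in these samples. CDKN1A, below 20 CPM in HTO2/HTO9, passed the filter through the samples where it was high.

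Of the 312 lower genes of HTO3/HTO9, 35 were also called lower in HTO4/HTO9 and 306 lay below 0 there. Heat shock genes followed the division genes, with 15699 CPM in HTO2/HTO9 and then 6972, 12065, 13299, 14067 and 14864 CPM. Of 19 members, 9 were called lower in HTO3/HTO9, where 5.43% of all tested genes were. With TMM factors 6 were, beside 184 of all 5750 tested genes. HSPA8, a constitutive chaperone, had 1097 CPM in HTO2/HTO9, 369 in HTO3/HTO9 and 1244, 1346, 1222 and 1281 CPM in the others, so that HTO3/HTO9 alone was low.

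Stress genes were called higher in HTO3/HTO9 and in none of the other 4. Of 17 integrated stress and unfolded protein response genes past the filter, 10 were higher in HTO3/HTO9, where 6.01% of all tested genes were. In the other 4 samples 0 were higher, near the share of 3.78% to 1.57% over all tested genes. SLC7A11 was lower in HTO4/HTO9 and DDIT3 in HTO6/HTO9. DDIT4, an inhibitor of the growth kinase mTORC1, had 30.9 CPM in HTO2/HTO9, 244 in HTO3/HTO9 and 17.7, 11.7, 20.9 and 17.7 CPM in the rest. PHGDH, the first enzyme of serine synthesis, had 18.7 CPM and then 102, 10.0, 10.1, 10.3 and 15.9 CPM. It passed the level filter through HTO3/HTO9, where it was high. FTH1, the ferritin heavy chain that stores iron, had 8199 CPM and then 17640.5, 6085, 5851, 6328 and 6319 CPM, while FTL, the light chain, had 9263 CPM and then 6089, 6551, 7235, 7727 and 8126 CPM. DDIT4 was 13.8-fold (10.4 to 18.7) and FTH1 2.90-fold (2.85 to 2.95) higher in HTO3/HTO9 than in HTO4/HTO9. The 13 mitochondrially encoded genes summed to 1.35 times HTO2/HTO9 in HTO3/HTO9 and 1.19 to 1.10 times in the others, and the low depth and high mitochondrial share of HTO3/HTO9 move with these genes too. When cells with at least 2000 genes and at most 10% mitochondrial counts were kept, 10 of 17 stress genes were called higher and 1 lower, and 46 of 53 G2/M genes lower in HTO3/HTO9. With this filter 413 of all 5882 tested genes were higher there and 418 lower.

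FABP4 was the single gene lower in all 5 samples. It encodes a fatty-acid-binding protein best known from fat and endothelial cells, and it had 96.1 CPM in HTO2/HTO9 and then 5.97, 1.33, 2.13, 7.61 and 28.7 CPM. It was thus 72.1-fold lower in HTO4/HTO9, which rests on 4 counts, and 3.34-fold lower in HTO7/HTO9. With a pseudocount of 50 CPM its difference in HTO7/HTO9 was −0.89, short of 2-fold. The 18 other samples ran from 7.84 to 118 CPM. After thinning each cell to 3000 UMIs, 11.1% of cells in HTO2/HTO9 had a FABP4 UMI and 5.42% in HTO7/HTO9.

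Other lower genes had their own shapes. PEG10, a gene derived from a retrotransposon, had 239 CPM in HTO2/HTO9 and then 20.7, 62.3, 95.6, 116 and 152 CPM. THBS1, the matrix protein thrombospondin 1, had 70.7 CPM and then 9.55, 13.3, 20.2, 33.9 and 55.3 CPM. KRT7, a keratin of simple epithelia, did not follow the others: it had 346 CPM in HTO2/HTO9 and 362 in HTO3/HTO9, then 136, 176, 187 and 225 CPM. VAT1, a synaptic vesicle membrane protein homolog, likewise had 77.2 and 70.1 CPM in HTO2/HTO9 and HTO3/HTO9, a difference of −0.12 that is 0.08 with TMM factors, and 32, 30, 34.3 and 33.6 CPM in the rest. KRT81, a hair keratin, and LDHB, a lactate dehydrogenase subunit, differed in HTO3/HTO9 by −2.42 and −1.39, and these differences turned to 0.64 and 0.77 when the cells with at least 500 CPM of KRT81 were left out, 9 in HTO2/HTO9 and 2 in HTO3/HTO9.

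The share of cells with a UMI differed by gene along the series. Cells thinned to 3000 UMIs are compared here. CD74 and CXCL9 are among the genes that mark the chosen samples, so their shares describe that choice. How much of a low share comes from free RNA in the droplets was not measured. A CD74 UMI was found in 2.87% of cells in HTO2/HTO9 and in 95.9%, 94.3%, 83.2%, 80.0% and 50% in the others. Without thinning the shares of CD74 were 9.84% and 99.6%, 99.1%, 98.9%, 95.1% and 73.3%. CXCL9 was found in 1.23% and then 71.1%, 49.8%, 19.8%, 6.34% and 0.833%, so HTO7/HTO9 was no higher than HTO2/HTO9. Without thinning the shares of CXCL9 were 4.92% and 84.1%, 77.2%, 43.6%, 16.0% and 3.75%. CXCL10 was found in 6.97% and then 97.2%, 93.4%, 74.8%, 32.2% and 8.75%. Its share in HTO7/HTO9 (5.50% to 13.1%) overlapped that in HTO2/HTO9 (4.11% to 10.9%). Without thinning the shares of CXCL10 were 22.1% and 99.6%, 98.2%, 89.0%, 53.9% and 25%. MKI67 was found in 54.1% and then 10.98%, 36.6%, 43.1%, 47.3% and 52.9%, and without thinning in 85.2% and then 27.6%, 69.3%, 78.8%, 76.2% and 83.3%.

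List sums per cell were also compared after thinning. The median cell had 1 UMI of the interferon gamma list per 3000 in HTO2/HTO9, and 61, 43, 27, 19 and 10 in the others. The 95th percentile of HTO2/HTO9, 5 UMIs, was passed by 100% of 246 cells in HTO3/HTO9 and by 80.8% (75.3% to 85.6%) in HTO7/HTO9. For the inflammatory cytokines, the same comparison gave 96.3%, 84.6%, 59.2%, 21.0% and 2.92% of cells, and 49.2% of cells in HTO7/HTO9 had no UMI of that list. The G2/M list had a median of 23 UMIs in HTO2/HTO9 and 4, 15, 18.5, 19 and 21 in the others, and 72.8% of the cells in HTO3/HTO9 lay below the 5th percentile of HTO2/HTO9. The antiviral list had a median of 4 UMIs in HTO2/HTO9 and 25, 23, 20, 17 and 13 in the others. In HTO2/HTO9 its mean was 6.08 and its 95th percentile 22, so the summed level there lies above that of the median cell. Cells below 3000 UMIs were left out, 0 to 2 per sample.

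**Figure D5:**
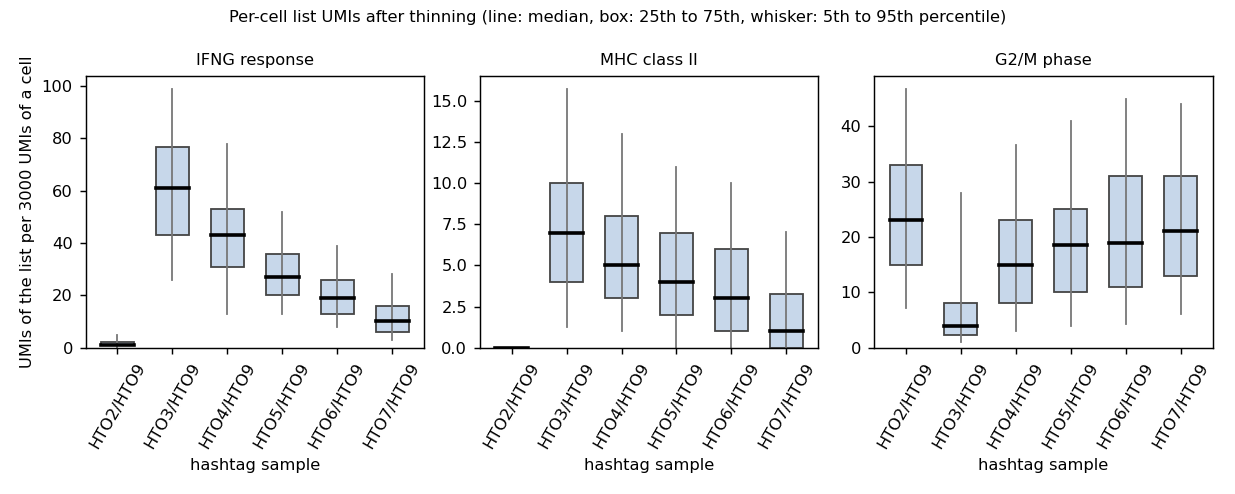
UMIs of 3 gene lists per cell after thinning each cell to 3000 UMIs (vertical axes) in the 6 hashtag samples (horizontal axes); lines are medians, boxes the 25th to 75th and whiskers the 5th to 95th percentiles over cells. The interferon gamma median goes from 61 in HTO3/HTO9 to 10 in HTO7/HTO9, and the G2/M median is 4 in HTO3/HTO9 against 23 in HTO2/HTO9.

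Lists outside immunity and division changed less. Epithelial junction genes were 1.73-fold (1.68 to 1.79) lower in HTO3/HTO9 and 1.07-fold (1.04 to 1.09) lower in HTO7/HTO9. Of 10 members past the filter, 4 were called in HTO3/HTO9, where 5.43% of all tested genes were lower. With TMM factors 0 were called, beside 184 of all 5750 tested genes. Translation genes and targets of MYC were 1.73-fold (1.70 to 1.77) lower in HTO3/HTO9. Of 24 members, 5 were called there, beside 5.43% of all tested genes. Glycolysis and hypoxia genes stood at 0.836 times HTO2/HTO9 in HTO3/HTO9, with 2 of 15 members higher and 1 lower, beside 6.01% and 5.43% of all tested genes. Cholesterol synthesis genes stood at 1.02 times (0.951 to 1.09), with 2 of 9 members higher in HTO3/HTO9, beside 6.01% of all tested genes. TGF-β and matrix genes stood at 1.5 times, with 3 of 11 members higher and 1, THBS1, lower, beside 6.01% and 5.43% of all tested genes.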

How the data were processed

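Per the file headers, the authors' UMI counts were made with Cell Ranger 5.0.1; version 2.1.1 and GRCh38 are named in the submitters' processing notes. How cells were called, and which annotation was used, is not given in the sources used here. The deposited matrix holds counts of 36602 genes and 10 hashtags in 10660 barcodes, and it merges the libraries, so no cell can be tied to 1 library and no value within a library can be given. The 24 tag pairs in use of 45 possible are each the top tags of at least 100 barcodes.

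UMI counts of the cells of each tag pair were summed and divided by the pair's total of gene counts to give CPM. Differences are of log2(CPM + 10). Intervals of 95% are exact Poisson for counts, conditional binomial for ratios and exact binomial (Clopper-Pearson) for shares. Where a sample had 0 counts, a fold used 3 counts in their place. PCR copies are removed by UMIs, but cultures are not replicated. Doublets within a sample cannot be seen by tags and were not removed.

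The samples, their order, the 23 gene lists (558 symbols, of which 2 matched no row) and the rules were chosen with earlier results of these data known. Genes named are the 15 with the largest and the 15 with the most negative HTO3/HTO9 difference, the 5 of each in HTO7/HTO9, the 3 with the highest mean CPM and the 3 with the largest absolute difference among members of each list, the 5 leading genes of each run, the 10 genes with the largest excess of HTO4/HTO9 or HTO5/HTO9 over HTO3/HTO9 and the 5 with the largest among called ones, and the 4 markers CD74, HLA-DRA, CXCL9 and GBP5. CIITA, IRF1, LBR, IFIT1, IFIT2, HERC5 and the genes called in HTO4/HTO9 but not HTO3/HTO9 were named after their values were seen. A few genes that the rule names are not reported here. Coordinates are from GENCODE 29 on GRCh38 and promoters from RefSeq.

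The code that makes the calls and intervals was checked on simulated counts. TMM factors came from edgeR 4.0.16 in R 4.3.3; other steps used Python 3.11.15, numpy 2.4.6, scipy 1.17.1 and pandas 2.3.3. Alternatives were other pseudocounts, level filters, scalings, cell filters, tag margins, thinning, and leaving out KRT81 cells.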

Additional observations from a re-analysis of the deposited data

Results flagged for a closer look

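The deposited table of features has an entry named Katushka, a far-red fluorescent protein, which no comparison above uses. It had 114 UMIs in the 6 hashtag samples, in 99 of 1428 cells, with at most 3 in a cell. Its level was 1.53 CPM (0.497 to 3.57) in HTO2/HTO9 and 7.17, 10.997, 5.84, 9.90 and 3.06 CPM in HTO3/HTO9 to HTO7/HTO9. The intervals of HTO3/HTO9 (4.25 to 11.3 CPM), HTO4/HTO9 (7.57 to 15.4 CPM), HTO5/HTO9 (3.66 to 8.85 CPM) and HTO6/HTO9 (6.47 to 14.5 CPM) lie above that of HTO2/HTO9, and that of HTO7/HTO9 (1.47 to 5.62 CPM) overlaps it. What the entry marks is not given in the labels used here.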

How the results depend on the processing

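No paired analysis was possible because each hashtag sample is 1 culture and no result comes from a test. The main counts (of genes called, of runs, and of list levels and cell shares apart from HTO2/HTO9) were recomputed under the alternatives, and 176 values stayed within 1.5 times while 59 did not. Those that did not are given in tag order from HTO3/HTO9 to HTO7/HTO9. With a pseudocount of 1 CPM, 499, 101, 41, 16 and 4 genes were lower. With 50 CPM, 191, 119, 89, 64 and 33 were higher and 76, 6, 2, 1 and 0 lower, and runs ended at HTO3/HTO9, HTO4/HTO9, HTO5/HTO9 and HTO7/HTO9 for 78, 27, 23 and 33 genes. With a minimum mean of 100 CPM, fewer genes are tested: 124, 94, 83, 66 and 53 were higher, 104, 11, 3, 1 and 0 lower, and runs ended for 32, 11, 15, 13 and 53. With a minimum mean of 5 CPM, 7 genes were lower in HTO6/HTO9 and runs ended at HTO3/HTO9 and HTO4/HTO9 for 231 and 76, and without a filter for 7, 248 and 76. With TMM or median-of-ratios factors, 184 and 33 genes were lower in HTO3/HTO9 and HTO4/HTO9. Without mitochondrial genes, or without KRT81 cells, 2 were lower in HTO7/HTO9.

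With at least 2000 genes and at most 10% mitochondrial counts per cell, 80, 39, 20 and 3 genes were lower in HTO4/HTO9 to HTO7/HTO9, and after thinning to 3000 UMIs 95, 43, 24 and 13. Both leave fewer counts, and the part of this in the numbers of lower genes was not tested. A tag margin of 5 gave 7 and 4 lower in HTO6/HTO9 and HTO7/HTO9. Calls whose interval lay beyond 2-fold gave 32, 9 and 2 lower in HTO4/HTO9 to HTO6/HTO9. No cause of these changes was tested. The share of higher among called genes in HTO3/HTO9 was 52.5%, and 70.8% with TMM factors and 71.5% with a pseudocount of 50 CPM. It was 46.2% with a pseudocount of 1 CPM, 48.5% after thinning, and 49.7% both with the stricter cell filter and with the filter over 24 pairs, so that lower genes then outnumbered higher ones. Differences of KRT81 and LDHB in HTO3/HTO9 changed sign without KRT81 cells, from −2.42 to 0.64 and from −1.39 to 0.77. Of the other values of named genes under the alternatives, 3099 stayed within their counting interval and 1005 moved beyond it. The 3099 include 294 for each alternative level filter, which changes the genes tested but cannot move a gene's difference. Of list ratios 568 stayed and 347 moved, and of shares of cells 9 stayed and 39 moved. A minimum mean of 20 CPM over all 24 pairs was chosen after seeing the data and moved no count past 1.5 times.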
